A study of Mus musculus with 36 samples.

Results

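Acetylation of histone H3 at lysine 9 (H3K9ac) was compared between ethanol-treated and untreated mice that carried a control viral vector in the dorsal hippocampus. The material was a pair of deposited lists of chromatin immunoprecipitation sequencing (ChIP-seq) peaks, 1 for each treatment. A peak was called lost when no base of it overlapped a peak of the ethanol list, gained when a peak of the ethanol list overlapped no untreated peak, and kept otherwise. On the assembled chromosomes the lists held 38235 untreated and 31042 ethanol peaks, 69277 of the 546933 peaks in the 8 lists of the study. Of these, 14516 were lost and 3642 were gained.

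The study combined this treatment with knockdown of Acss2 in 36 samples, which formed 12 groups of 3. All mice were males aged to 8 weeks. Ethanol was injected intraperitoneally at 2 g/kg as a 20% solution in saline, and the other mice were left untreated, so no saline-injected group stands beside the ethanol group. The knockdown vector was an AAV2/9 virus with U6.shACSS2.CMV.EGFP placed by stereotaxic injection; the labels do not describe the construct of the control vector, and every mouse of the main comparison carried it under the genotype label Control. The groups compared here were H3K9ac.Control.Untreated and H3K9ac.Control.EtOH, with 3 ChIP libraries each. About 20 mg of dorsal hippocampus from each mouse was crosslinked and sheared to about 250 bp. The labels do not give the interval between injection and dissection.

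H3K9ac sits on nucleosomes just downstream of the start of active genes and, more weakly, over intronic and distal enhancers. Acetyl groups for this mark come from acetyl-CoA. Ethanol is oxidised to acetaldehyde and acetate, largely in the liver, and acetate that reaches neurons can be turned into acetyl-CoA by ACSS2, an enzyme found in the nucleus as well as the cytosol. In the hippocampus, histone acetylation accompanies activity-dependent transcription and memory formation.

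Each list stands for the 3 replicates of its group together. No value per mouse exists in these lists, so no spread between mice and no p-value can be attached to any difference, and the read depth behind each list is unknown. Shares carry 95% Wilson intervals, which cover counting error only. Each peak has 1 score, read from its values as a −log10 q-value, which served to order peaks inside their own list and for one filter on score. Because bulk tissue was used, fewer cells with the mark and less of the mark per cell cannot be told apart. Of 20 excitatory neuron markers 18 had a gene-start peak untreated and 16 with ethanol. Prox1 of dentate granule neurons and Emx1, Neurod2 and Zbtb18 of the excitatory lineage had one in both lists. Of 20 inhibitory neuron markers 6 had one untreated and 5 with ethanol. Of 24 genes of other tissues, 5 had any covered base, against 13387 of 21887 protein-coding genes. Some brain markers were as sparse, with 5 of 20 for microglia and macrophages and 7 of 20 for endothelial and mural cells.

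The 6 promoters shown next are examples picked after the values were seen, in which a peak over the printed bases differed between the lists. Neurod6, Fezf2 and Cck had no ethanol peak within 1.0 kb of the start, Gad1 and Syt1 kept a peak in that window but lost the one over these bases, and Psd4 gained a peak. Some of these peaks were weak. The lost peak over the printed bases scored 3.89 at Neurod6, 4.76 at Gad1 and 5.00 at Syt1. A minimum score of 5 removes those of Neurod6 and Gad1 from the untreated list. They are the 250 bases before the RefSeq start in GRCm38.p6, read 5′ to 3′ on the gene's strand, with each CG dinucleotide in capitals. CG dinucleotides cluster in the mostly unmethylated islands where many active promoters lie.
Neurod6: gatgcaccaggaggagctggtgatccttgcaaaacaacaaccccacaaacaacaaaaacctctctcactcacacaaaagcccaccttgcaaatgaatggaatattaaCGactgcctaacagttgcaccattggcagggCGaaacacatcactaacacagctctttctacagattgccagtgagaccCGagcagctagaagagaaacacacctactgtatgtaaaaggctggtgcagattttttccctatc
Fezf2: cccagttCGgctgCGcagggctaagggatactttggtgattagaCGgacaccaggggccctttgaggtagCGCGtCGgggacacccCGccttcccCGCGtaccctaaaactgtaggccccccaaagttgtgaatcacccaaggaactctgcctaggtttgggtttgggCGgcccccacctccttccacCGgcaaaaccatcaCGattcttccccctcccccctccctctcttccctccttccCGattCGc
Cck: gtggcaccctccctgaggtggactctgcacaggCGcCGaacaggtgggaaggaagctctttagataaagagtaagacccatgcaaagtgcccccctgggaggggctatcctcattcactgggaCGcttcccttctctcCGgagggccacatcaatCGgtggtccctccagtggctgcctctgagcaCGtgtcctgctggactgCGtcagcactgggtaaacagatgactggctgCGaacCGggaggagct
Gad1: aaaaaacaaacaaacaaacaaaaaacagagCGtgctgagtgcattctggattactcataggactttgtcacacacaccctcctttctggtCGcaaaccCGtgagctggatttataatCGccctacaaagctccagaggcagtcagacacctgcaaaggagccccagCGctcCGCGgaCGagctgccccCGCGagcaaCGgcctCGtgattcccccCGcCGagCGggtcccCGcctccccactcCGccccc
Syt1: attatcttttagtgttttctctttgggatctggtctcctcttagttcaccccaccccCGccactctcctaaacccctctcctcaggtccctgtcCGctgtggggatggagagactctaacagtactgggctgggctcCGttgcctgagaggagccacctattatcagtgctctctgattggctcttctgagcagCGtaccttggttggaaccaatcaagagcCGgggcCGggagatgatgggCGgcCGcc
Psd4: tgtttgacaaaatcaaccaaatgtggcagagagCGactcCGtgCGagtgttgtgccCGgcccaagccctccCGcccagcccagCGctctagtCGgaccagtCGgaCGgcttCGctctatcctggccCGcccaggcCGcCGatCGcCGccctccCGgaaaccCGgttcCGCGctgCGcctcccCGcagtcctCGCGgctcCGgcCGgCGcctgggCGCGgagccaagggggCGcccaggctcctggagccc
Neurod6 (chr6:55681264-55681513, minus strand) has 3 CG in the 300 bases around its start. Cck (chr9:121495695-121495944, minus strand) has 10 and Syt1 (chr10:109010976-109011225, minus strand) has 8. Fezf2 (chr14:12345866-12346115, minus strand) has 20, Gad1 (chr2:70561879-70562128, plus strand) has 21 and Psd4 (chr2:24367425-24367674, plus strand) has 34. For comparison, the median over 21263 starts of 17492 genes was 13. Genes outside this promoter table, 4395 of 21887 protein-coding genes, were followed at both gene ends.

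The untreated list lost many more peaks than the ethanol list gained. The lost peaks were 38.0% of the untreated list (37.5% to 38.5%) and the gained peaks 11.7% of the ethanol list (11.4% to 12.1%). Most lost peaks were short and weak. Their median width was 212 bp, against 675 bp for kept untreated peaks, and their median score lay at percentile 23.9 of the list. Of the 14516 lost peaks, 1185 (8.16%) scored above the list's median and 1 lay in the highest score decile. Gained peaks were of the same kind, with a median width of 175 bp and 130 of 3642 (3.57%) above the median score of the ethanol list. With the untreated list cut to its 31042 highest-scoring peaks, 8649 were lost and 4708 gained. With peaks within 500 bases of each other merged first, 8355 were lost and 2407 gained.

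The share lost fell steeply with rank. In score decile 1, the lowest, 82.8% of untreated peaks were lost; in decile 5 the share was 46.9%, in decile 7 6.35% and in decile 10 0.0260%. Gained peaks ran from 38.2% in decile 1 of the ethanol list to 6.34% in decile 5 and 0.0668% in decile 10. Width gave the same order. Of untreated peaks under 250 bp 77.2% were lost, of those from 1000 to under 2000 bp 22 of 5927 (0.371%), and of those of 2000 bp or more 0 of 889. A count of 0 allows a share of up to 0.337% when set at 3 peaks of the total, and the Wilson upper limit is 0.430%.

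**Figure D1:**
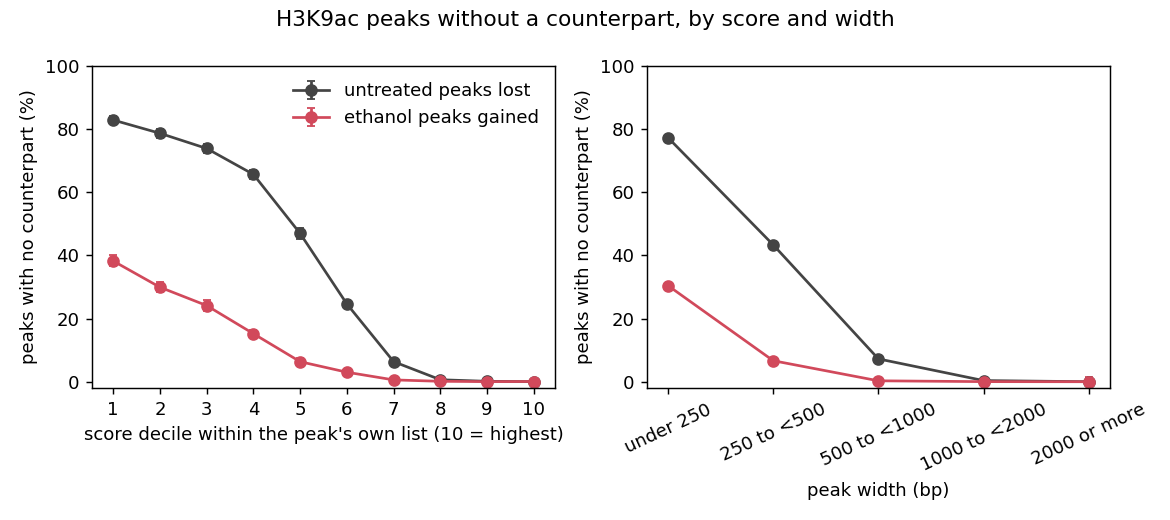
Share of peaks with no overlapping base in the other list (vertical axis, %) by score decile within the peak's own list (left) and by peak width in bp (right), for untreated peaks lost with ethanol (dark) and ethanol peaks gained (red); bars are 95% Wilson intervals. The untreated share falls from 82.8% in decile 1 to 0.0260% in decile 10.

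Peaks inside genes and between genes were lost more often than peaks at gene starts. Within 1.0 kb of a start 3020 of 19083 untreated peaks (15.8%) were lost, inside genes 8625 of 13654 (63.2%) and outside genes 2871 of 5498 (52.2%). Gained shares were 3.91%, 25.7% and 21.3% in the same order. Gene-start peaks also score higher, and part of this order remained among peaks of similar rank. In the lowest score quintile the lost shares were 67.4% (64.9% to 69.8%) at starts, 84.9% (83.9% to 85.9%) inside genes and 81.0% (78.9% to 83.0%) outside genes. In the third quintile they were 25.0%, 46.2% and 40.9%. In the highest quintile 2 of 6656 gene-start peaks were lost.

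Many lost peaks lay beside a peak that stayed. An ethanol peak was found within 1000 bp of 6516 lost peaks (44.9%), and 4073 had one between 100 and 500 bp away. At the other end, 3125 (21.5%) were 20000 bp or more from any ethanol peak. Gained peaks were closer still, with a median distance of 500 bp to an untreated peak against 1546 bp for lost ones. Near the rule's edge, 86 kept untreated peaks shared 10 bases or fewer and 92 lost peaks missed an ethanol peak by 10 bases or fewer.

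Kept peaks were narrower in the ethanol list and often lay in pieces. Of the 22.6 Mb covered in untreated mice, 14.2 Mb (63.0%) were covered in both lists, 3.62 Mb (16.0%) lay in lost peaks and 4.74 Mb (21.0%) were bases of kept peaks that the ethanol list no longer covered. More sequence thus left the list at the edges and gaps of kept peaks than in lost peaks. The ethanol list added 0.720 Mb in gained peaks and 1.15 Mb in kept ones. Among 16821 peaks that met exactly 1 peak of the other list and were met by no other, the median width was 594 bp untreated and 450 bp with ethanol, with a median difference of -95.0 bp. Of these pairs, 12711 (75.6%) were narrower with ethanol and 4060 (24.1%) wider.

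Broad peaks of untreated mice often appeared as several peaks in the ethanol list. Of 23719 kept untreated peaks, 4406 (18.6%) met 2 or more ethanol peaks and 696 met 3 or more; the reverse held for 1505 of 27400 kept ethanol peaks (5.49%). The share was 2.09% of kept peaks under 500 bp, 41.2% from 1000 to under 2000 bp and 96 of 107 (89.7%, 82.5% to 94.2%) at 3000 bp or more. The 8 widest that met 3 or more are named by gene. At Nfib, a nuclear factor I gene, a peak of 5199 bp met 5 ethanol peaks that left 51.7% of it covered. At Cpeb3, which encodes a regulator of synaptic mRNA translation, 4753 bp met 6 ethanol peaks with 79.9% covered. At Dusp7, a MAP kinase phosphatase gene, 4667 bp met 6, and at Erf, an ETS repressor gene, 4751 bp met 4. The peaks at Bahcc1 (4974 bp), Klf13 (4574 bp) and Bcl2l1 (4478 bp) each met 3 and stayed 90.1%, 93.4% and 89.5% covered. At Prrt2 and Maz, which share a peak of 4335 bp, 4 ethanol peaks covered 62.4%. With peaks within 500 bases merged first, 801 untreated peaks met 2 or more ethanol peaks.

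**Figure D2:**
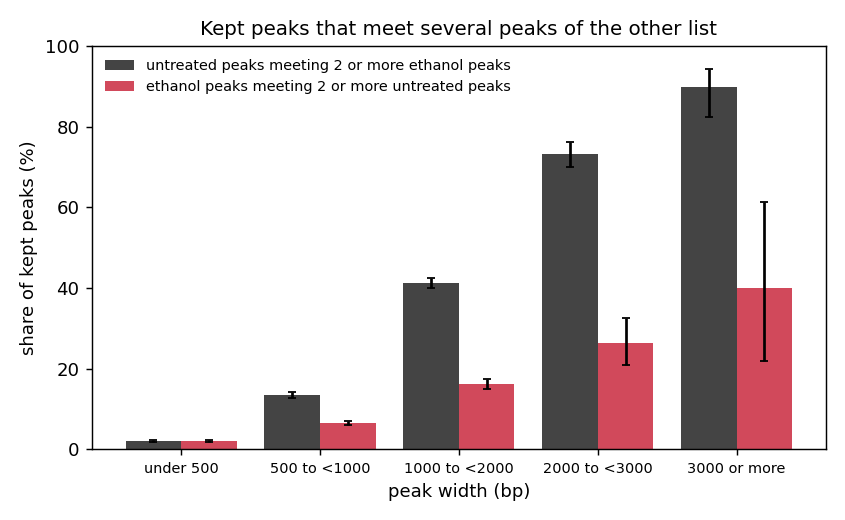
Share of kept peaks (vertical axis, %) that meet 2 or more peaks of the other list, by peak width in bp, for untreated peaks against the ethanol list (dark) and ethanol peaks against the untreated list (red); error bars are 95% Wilson intervals. Untreated peaks of 3000 bp or more met several ethanol peaks in 89.7% of cases, and ethanol peaks of that width met several untreated peaks in 40.0%.

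Around gene starts the ethanol list was closest to the untreated list just downstream of the start and held a smaller share of its genes farther downstream. For 14731 genes with a single start in the promoter table, 49.4% had an untreated peak 100 bp downstream of the start and 44.2% an ethanol peak. At 1100 bp downstream the values were 19.1% and 12.3%, so the ethanol list held 64.4% as many genes there as the untreated list, against 89.6% at 100 bp. The ratio was lowest at 2600 bp downstream, 48.5%, and was 62.5% at 3450 bp. At 500 bp before the start 25.6% and 20.7% of genes were covered, less than at 500 bp after it (46.2% and 41.0%). The ratio was 80.8% at 500 bp before the start, 68.9% at 1000 bp, 61.5% at 2550 bp and 78.5% at 3300 bp. Coverage dipped just before the start, lowest at 50 bp before it with 24.3% and 16.3% of genes. The ratio there was 67.3%, against 79.7% at 250 bp before the start and 89.6% at 100 bp downstream. At position 0 the values were 31.3% and 21.8%. In the knockdown lists the values at 1100 bp downstream were 18.5% untreated and 20.1% with ethanol.

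**Figure D3:**
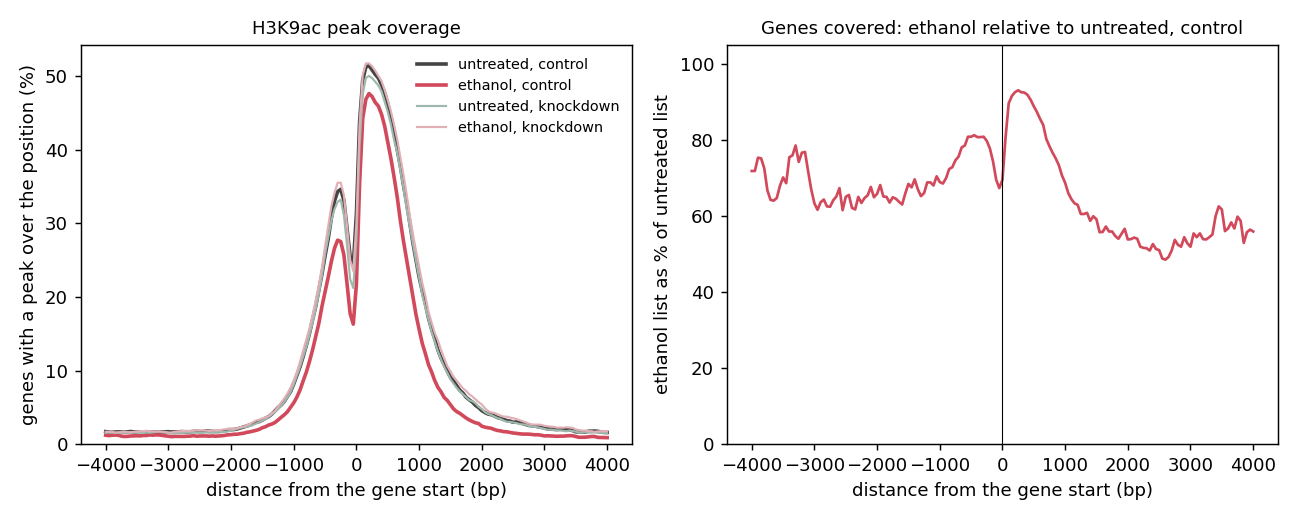
Left, share of 14731 single-start genes with an H3K9ac peak over each position (vertical axis, %) against distance from the start in bp, for the 2 control lists (thick lines) and the 2 knockdown lists (thin lines). Right, genes covered in the ethanol list as a percentage of those in the untreated list, both with control vector. The ratio is 89.6% at 100 bp downstream, 48.5% at 2600 bp, its lowest point, and 62.5% at 3450 bp.

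A gene start had a peak in the untreated list at 13006 genes and in the ethanol list at 12449. Both lists had one at 12332 genes, 674 genes lost it (5.14% of the 13123 genes with one in either list) and 117 gained it (0.892%). With lists of equal length 495 genes lost and 220 gained one. At 657 of the 674 every untreated peak in the window was itself lost, and at 17 a peak shrank out of the window. Of the 657, 355 had a peak at the start in each of the knockdown lists and 113 in neither, and 501 had H3K27ac, the acetylation of lysine 27 that marks active promoters and enhancers, in both control lists. Kept untreated peaks at gene starts, counted as peaks and not genes, had a counterpart more often. The shares were 97.1% in the untreated and 98.3% in the ethanol knockdown list. In the H3K27ac control lists they were 98.6% untreated and 98.7% with ethanol.

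Of the 12 genes of highest score with an untreated but no ethanol peak in the gene-start window, 7 left no covered base within 2.0 kb of the start. At Ephx2, the soluble epoxide hydrolase gene, a peak of 430 bp (chr14:66124065-66124494) stood at score percentile 84.4 and the nearest ethanol peak was 78934 bp away. At N6amt1, a methyltransferase gene, a peak of 430 bp (chr16:87354206-87354635) from 21 to 450 bp downstream of the start was absent, and covered bases went from 430 to 0. The knockdown lists held 732 and 545 covered bp at N6amt1 in untreated and ethanol-treated mice. Nuak2, an AMPK-related kinase gene, went from 460 to 0 bp, Fam122b from 575 to 0 bp and Bace2, a relative of the beta-secretase gene, from 726 to 0 bp. Il27ra, a cytokine receptor gene, went from 449 to 0 bp and Ttc30a2, of intraflagellar transport, from 250 to 0 bp. Each of these 7 genes kept H3K27ac-covered bases in both control lists.

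At the other 5 genes covered bases remained close by. Tfap4, a transcription factor gene, went from 1795 to 904 covered bp within 2.0 kb. Peaks at Ly6h (1150 to 559 bp), Inha, the inhibin alpha gene (1154 to 761 bp), Hapln1, of perineuronal nets (443 to 162 bp), and Ss18, of the BAF chromatin remodelling complex (1059 to 899 bp), narrowed out of the gene-start window.

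Gained gene-start peaks were fewer, with 150 to 229 bp at 7 of the 8 of highest score. Psd4, an exchange factor gene for ARF6, gained 216 bp (chr2:24367502-24367717) over its start at score percentile 61.1, with 0 covered bp in the untreated knockdown list and 169 in the ethanol one. Zim1, an imprinted zinc finger gene, gained 184 bp, Plaat5, a phospholipid acyltransferase gene, 229 bp, and Ticrr, of replication initiation, 173 bp. Wnt5a, a Wnt ligand gene, gained 187 bp, Agmo, an ether lipid monooxygenase gene, 183 bp, and Fbxo39, an F-box gene, 150 bp. The other, Lratd2, already had 814 covered bp and went to 1056. Agmo and Fbxo39 also had 0 covered bp in the untreated knockdown list, and Agmo had 0 in the ethanol one.

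Promoters that lost their peak were poorer in CG than those that kept it. The median number of CG in the 300 bases around the start was 22 at 12064 kept starts, 11 at 663 lost starts, 12 at 103 gained starts and 3 at 8433 starts with no peak. Of starts with an untreated peak, 22.3% (18.8% to 26.1%) were lost at 0 to 4 CG, 8.53% at 10 to 14 and 1.96% (1.67% to 2.30%) at 20 or more. CG-rich starts carry higher scores. In the third score quintile the lost share was 24.2% (20.3% to 28.7%) under 10 CG, 16.8% from 10 to 19 and 12.2% (9.70% to 15.3%) at 20 or more. In the second quintile it was 50.0%, 51.1% and 40.8%, with overlapping intervals. Among the printed promoters, Neurod6 lies on the poor side, while Fezf2 lost its peaks with 20 CG.

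Short motifs were counted in the same 300 bases on both strands. The GC box core GGGCGG was present at 68.0% of kept, 49.6% of lost and 53.4% of gained starts, against 46.2% of all promoters. The cyclic AMP response element TGACGTCA was present at 3.32%, 1.66% and 0.971%, against 2.23% of all, and TGACG, which is also part of TGACGTCA, at 32.4%, 19.6% and 13.6%, against 23.6%. The TATA box TATAAA was present at 5.94%, 8.45% and 10.7%, against 12.6%. GGGCGG and TGACG each contain a CG, so these counts move with the CG content. In the 250 printed bases Psd4 has 3 GGGCGG, Fezf2, Syt1 and Gad1 1 each, Cck 1 TGACG and Gad1 1 TATAAA.

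Most genes had fewer covered bases within 2.0 kb of their start with ethanol. Of 13387 genes with any covered base, 11538 (86.2%) had fewer with ethanol and 1840 (13.7%) more, and the median went from 1364 to 1064 bp, with a median change of -283 bp. Among 12084 genes with 500 covered bp or more in either list, 3122 (25.8%) had at least 1.5-fold fewer and 63 (0.521%) at least 1.5-fold more. This share depended on the score of the gene's strongest untreated peak, from 53.6% of 2390 genes in the lowest score quintile to 12.3% of 2427 in the highest. The median change was about even over the quintiles, at -348 bp in the lowest and -299 bp in the highest, while the median untreated coverage was 906 and 1809 bp.

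The largest falls in bases were at genes with several starts and broad coverage. Zmynd8, a chromatin reader gene, went from 6964 to 3444 bp and Celf2, of neuronal splicing, from 5889 to 2641 bp. Pde2a, a cyclic nucleotide phosphodiesterase gene, went from 4084 to 1130 bp, which included the loss of a peak of 1232 bp inside the gene (chr7:101452057-101453288). Aatk, a kinase gene, went from 6778 to 3917 bp, Trak1, of mitochondrial transport in axons, from 5085 to 2257 bp, and Dctn1, of the dynactin complex, from 4375 to 1755 bp. Dock9 (5328 to 2577 bp) and Dab2ip (4030 to 1394 bp) regulate small GTPases. In the knockdown lists Zmynd8 went from 5536 to 8366 bp and Pde2a from 3883 to 4441 bp. The largest rises were smaller: Zfp61 from 994 to 1779 bp, Slc26a6, an anion exchanger gene, from 484 to 1253 bp, Lipe, the hormone-sensitive lipase gene, from 1269 to 1999 bp, Evl, of actin regulation, from 753 to 1438 bp, and Hp1bp3, of heterochromatin, from 1611 to 2294 bp. The rise at Lipe was 730 bp here, 337 bp with peaks of a score of 5 or more, 205 bp over the gene and 2 kb on either side, and 1101 bp with peaks within 500 bases merged first.

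The same genes were read in the H3K27ac lists of the same groups and in the H3K9ac lists of the knockdown. Over the 12084 genes the median H3K27ac change was -36.0 bp, from 1454 to 1416 bp, and 339 had at least 1.5-fold fewer and 259 more. The 3122 genes with fewer H3K9ac bases had a median H3K27ac change of -46.0 bp, with 182 at least 1.5-fold fewer and 125 more. For H3K9ac in the knockdown their median change was 118 bp, from 1126 to 1244 bp, with 90 at least 1.5-fold fewer and 457 more. Over all 12084 genes that median change was 80.5 bp, with 223 fewer and 865 more.

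Most lists of synaptic, neuronal and glial genes had a larger share of members 1.5-fold lower than all genes, and in most of them low-scoring peaks prevailed. The share was highest, 71.4%, for the markers of ependyma, choroid plexus and other brain regions, with 5 of 7 members. Lists below are described by counts beside the values for all genes, 86.2% with fewer covered bases, 25.8% with at least 1.5-fold fewer and a median change of -283 bp. From the lowest to the highest score quintile, the 1.5-fold share of all genes was 53.6%, 28.5%, 20.2%, 14.9% and 12.3%. All 29 genes of synaptic vesicle release had fewer covered bases, 12 of 28 had at least 1.5-fold fewer, and the median change was -525 bp. Of these 28 genes 15 lay in the 2 highest score quintiles, and 5 of those 15 were among the 12. Syt1, the calcium sensor of vesicle fusion, went from 3265 to 730 bp over its 2 starts. Sv2b, a vesicle glycoprotein gene, went from 981 to 180 bp, Bsn, the active zone scaffold Bassoon, from 2209 to 1070 bp, Syn1, synapsin I, from 978 to 307 bp, and Syt4 from 918 to 277 bp. Vamp2, the vesicle SNARE gene, kept 2446 of 3250 bp.

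At Syt1 the untreated list had 6 peaks between -1102 and 3014 bp from the start, the largest of 1442 bp from 57 to 1498 bp downstream. The ethanol list had 2 peaks there, from 84 to 617 bp and from 2361 to 2556 bp. Both upstream peaks of the untreated list, one of which covers part of the printed promoter, had no counterpart. In the knockdown lists Syt1 had 2574 covered bp untreated and 3330 with ethanol, and its H3K27ac-covered bases in control mice were 2863 and 2259.

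Of 18 covered excitatory neuron markers all had fewer covered bases, 8 of 17 at least 1.5-fold fewer, with a median change of -592 bp. None of the 17 lay in the 2 highest score quintiles. Fezf2, a transcription factor gene of deep-layer projection neurons that was also listed with other brain regions, went from 1651 to 0 bp: 7 untreated peaks between -675 and 4311 bp from the start had no ethanol peak beside them. The knockdown lists kept 1840 and 1242 bp at Fezf2, and H3K27ac in control mice 2150 and 1498 bp. Neurod6, a pyramidal neuron factor gene, went from 308 to 0 bp and lost its peak of 148 bp over the printed promoter. Nrn1, the neuritin gene, went from 4229 to 2677 bp and Prox1 from 3527 to 2325 bp.

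GABA genes followed. Of 17 members 15 had fewer covered bases and 9 at least 1.5-fold fewer, with a median change of -409 bp; 14 of the 17 lay in the 2 lowest score quintiles. Gad1, which makes GABA, went from 1842 to 433 bp, with 6 untreated peaks between -828 and 2036 bp from the start and 2 ethanol peaks. Of 6 covered inhibitory neuron markers all had fewer, 4 at least 1.5-fold fewer, counting Gad1 again. Cck, a neuropeptide gene also active in pyramidal cells, went from 1938 to 486 bp, and the ethanol peak nearest its start began 1515 bp downstream, overlapping an untreated peak that reached from 867 to 2059 bp. In the knockdown lists Cck had 1821 and 2005 bp.

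**Figure D4:**
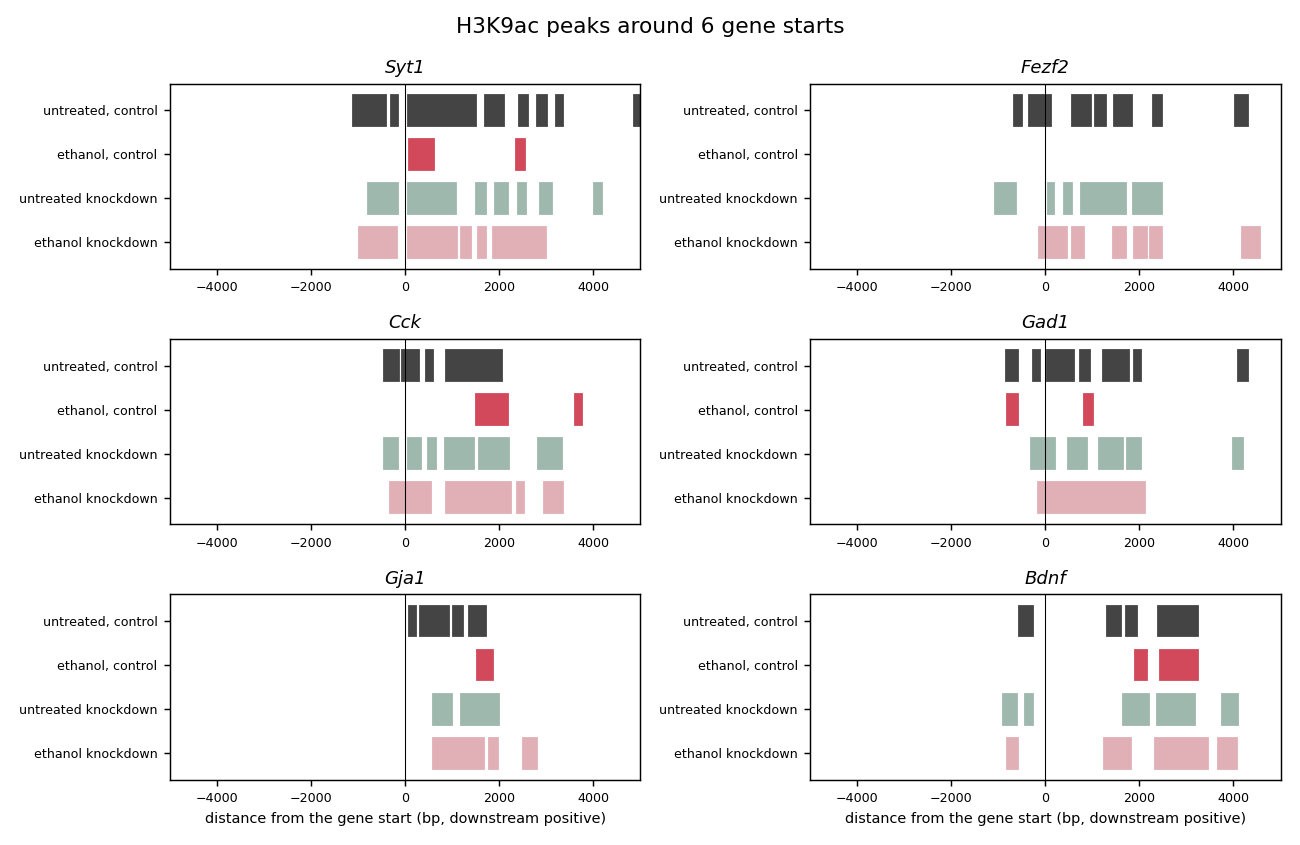
H3K9ac peaks of the 4 lists (rows) around the starts of Syt1, Fezf2, Cck, Gad1, Gja1 and Bdnf, drawn to scale by distance from the outermost start in bp, downstream to the right. Fezf2 has 7 peaks in the untreated control list and none in the ethanol control list within 5000 bp, and peaks in both knockdown lists.

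Glutamate receptor and ion channel genes were nearer to the background. Of 27 covered genes of glutamate receptors and the postsynaptic density 23 had fewer, 9 of 25 at least 1.5-fold fewer, with a median change of -375 bp. In the 2 lowest score quintiles lay 17 of the 25, and 8 of the 9 were among these 17. Grik3, a kainate receptor gene, went from 1819 to 503 bp and Grm2, an inhibitory autoreceptor gene, from 1956 to 766 bp. Cacng8, an AMPA receptor auxiliary subunit gene, lost its start peak with 1172 and 534 covered bp, and Dlg3, a scaffold gene, gained 329 bp. Grm7 and Grm4 had more, at 2068 and 2221 bp and at 713 and 784 bp. Of 24 voltage-gated channel genes 21 had fewer, 9 of 23 at least 1.5-fold fewer. In the 2 lowest score quintiles lay 13 of the 23, and 7 of the 9 were among these 13. Cacnb3, a calcium channel beta subunit gene, went from 2846 to 1344 bp and Cacna1e from 2640 to 1463 bp, and the BK channel gene Kcnma1 had more, from 1960 to 2398 bp.

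Immediate early genes, the first to be transcribed when a neuron fires, had fewer covered bases at all 24 members, 10 of 23 at least 1.5-fold fewer, with a median change of -646 bp from a median of 2190 bp. Of the 23, 16 lay in the 2 lowest score quintiles, and 9 of the 10 were among these 16. Over all genes the 1.5-fold shares in those quintiles were 53.6% and 28.5%. Bdnf, a neurotrophin gene with 7 starts in the table, went from 3807 to 2240 bp, and Fosl2, of the AP-1 complex, from 3175 to 1630 bp. Fos itself went from 1769 to 1606 bp and Arc from 3199 to 2116 bp. Nptx2 gained a peak within the start window, although its coverage in the wider window was 255 bp untreated and 174 bp with ethanol. Learning and memory kinases and their targets had fewer members past 1.5-fold than the background, 3 of 21 (14.3%), while 85.7% of members had fewer covered bases and the median change was -369 bp. The 3 were Pde4b, a cyclic AMP phosphodiesterase gene (3001 to 1325 bp), Adcy8 (2597 to 1303 bp) and Mapk3 (1552 to 895 bp). Creb1, the transcription factor of the cyclic AMP pathway, had more, from 2062 to 2282 bp.

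Of all genes with a gene-start peak in either list 5.14% lost it, and several gene lists lost none. Among these were the genes that handle ethanol, acetate and acetyl-CoA, 15 of 22 with such a peak both untreated and with ethanol. Of the 15, 12 had fewer covered bases, 8 of 14 had at least 1.5-fold fewer, and the median change was -414 bp. In the 2 lowest score quintiles lay 7 of the 14, and 3 of these 7 were among the 8. Acss2 went from 1582 to 981 bp and Acss1, its mitochondrial relative, from 1900 to 1041 bp. Pdha1, a subunit gene of pyruvate dehydrogenase, went from 1167 to 312 bp: a peak of 895 bp shrank to 312 bp and the upstream peak was lost. Acly, which makes acetyl-CoA from citrate, went from 1952 to 1265 bp, and the mitochondrial aldehyde dehydrogenase gene Aldh2 from 1655 to 859 bp. The monocarboxylate transporter genes Slc16a1 and Slc16a3 went from 2036 to 1318 bp and from 827 to 200 bp. Aldh1b1 (322 to 414 bp), Cat, the catalase gene (1204 to 1246 bp), and Aldh9a1 (893 to 924 bp) had more. In the knockdown lists Pdha1 had 692 and 1123 bp and Acss1 1752 and 1743 bp.

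Writers, erasers and readers of histone acetylation lay near the background, with 24 of 27 lower and 7 of 25 at least 1.5-fold lower. Kat6a, an acetyltransferase gene, went from 2333 to 1398 bp, Hdac5, a deacetylase gene, from 2218 to 1396 bp, and Crebbp, the CREB-binding acetyltransferase gene, from 2048 to 1297 bp. Hdac6 lost a weak start peak, with 164 and 0 bp. Kat8 (686 to 886 bp) and Kat5 (1233 to 1318 bp) had more.

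**Figure D5:**
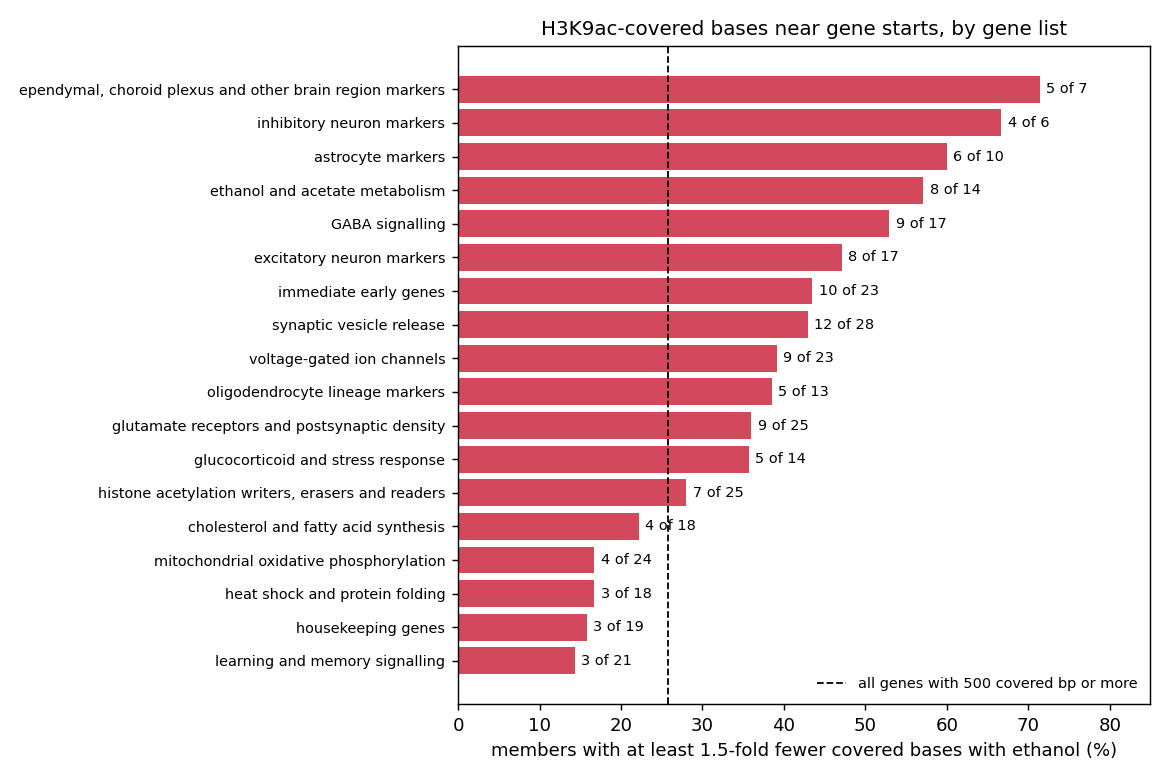
Share of members with at least 1.5-fold fewer H3K9ac-covered bases with ethanol (horizontal axis, %) for each gene list with 5 or more members of 500 covered bp in either list; counts stand beside the bars and the dashed line is the share over all such genes, 25.8%. Ependymal and other brain region markers have the longest bar, 71.4%. All synaptic, neuronal, channel, astrocyte, oligodendrocyte, immediate early, stress response, histone acetylation and acetate lists lie above the line. The learning and memory, housekeeping, heat shock, oxidative phosphorylation and lipid synthesis lists lie below it.

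Many glial and vascular markers had little or no H3K9ac in either list, so each of their counts rests on few genes. Of 16 covered astrocyte markers all had fewer covered bases and 6 of 10 at least 1.5-fold fewer, with 8 of the 10 in the 2 lowest score quintiles. Gja1, the connexin gene of astrocytes, went from 1335 to 339 bp, with the one ethanol peak lying from 1519 to 1857 bp downstream. Gfap (363 to 0 bp), Aldoc (285 to 0 bp), Slc7a10 (235 to 0 bp) and Aldh1l1 (152 to 0 bp) lost their peaks. At Gfap the change was 0 bp with peaks of a score of 5 or more and with lists of equal length, which ends that loss. At Gja1 the change was -632 bp in both, against -996 bp here. Under either setting 13 astrocyte markers had fewer covered bases, against 16 here, and 0 had more. Sox9 went from 1483 to 399 bp, whereas Glul, the glutamine synthetase gene, stayed at 2259 and 2212 bp. For oligodendrocyte lineage markers 14 of 16 were lower and 5 of 13 at least 1.5-fold, among them Mbp, of myelin, from 1716 to 891 bp and Sox10 from 1779 to 1003 bp. In the 2 lowest score quintiles lay 12 of the 13 markers, and 4 of these 12 were at least 1.5-fold lower. Over all genes the 1.5-fold shares in those quintiles were 53.6% and 28.5%. Nkx6-2 had more, from 1196 to 1415 bp. Of 5 covered microglia and macrophage markers 4 were lower and 1 had more. Spi1 lost its peak (420 to 0 bp) and Sall1 went from 3154 to 1731 bp. Only 2 of these markers had 500 covered bp in either list. Of the 2, 1 had at least 1.5-fold fewer and 1 at least 1.5-fold more. Of 7 covered endothelial and mural markers 4 were lower: Pdgfrb (500 to 0 bp) and Rgs5 (260 to 0 bp) lost a peak and Cldn5 (0 to 181 bp) gained one. Of 10 ependymal, choroid plexus and other brain region markers 9 were lower, 5 of 7 at least 1.5-fold, with 6 of the 7 in the 2 lowest score quintiles and a median change of -377 bp. Besides Fezf2, Kl (580 to 0 bp), Adora2a (509 to 0 bp) and En2 (377 to 0 bp) lost a peak and Lef1 (0 to 208 bp) gained one. Whether the makeup of the dissected tissue differed between the groups was not tested.

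In 4 lists of broadly expressed genes fewer members passed 1.5-fold than among all genes, although the median change was larger than -283 bp in each. Of 19 housekeeping genes 18 had fewer covered bases and 3 at least 1.5-fold fewer, with a median change of -406 bp from a median of 1992 bp. Of 24 genes of oxidative phosphorylation 23 had fewer and 4 at least 1.5-fold fewer, with a median change of -359 bp, while 17 of the 24 lay in the 2 highest score quintiles. Heat shock and protein folding genes numbered 17 of 18 with fewer and 3 at least 1.5-fold, including Hsf1, the heat shock factor, from 2685 to 1425 bp. Their median change was -550 bp from a median of 2260 bp. In cholesterol and fatty acid synthesis 15 of 18 were lower and 4 at least 1.5-fold, with a median change of -345 bp.

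Of 14 covered stress response genes 11 (78.6%) were lower, against 86.2% of all genes, and 3 had more. The median change was -391 bp. At least 1.5-fold lower were 5 of 14 (35.7%), against 25.8% of all genes. Among them were the kinase gene Sgk1, from 5101 to 3245 bp, and the clock gene Per1, from 3593 to 2273 bp. The cell cycle inhibitor gene Cdkn1a had more, from 950 to 1269 bp.

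Genes with many peaks inside lost most of them, at about the share of all peaks inside genes. Of 245 genes with 10 or more untreated peaks inside, 183 lost more than they kept, with a median lost share of 64.3% and a range from 10.0% to 91.7%, against 63.2% of untreated peaks inside genes and away from starts, and 36.5% of all 29243 untreated peaks that overlapped a gene, those at starts included. Gse1, which spans 353 kb, lost 51 of 76 peaks and gained 10. Nfix, a nuclear factor I gene, lost 45 of 76, and the basic helix-loop-helix gene Tcf4 45 of 73. Dagla, which makes an endocannabinoid, lost 23 of 28, the neuronal repressor gene Zeb2 23 of 37, Coro2b, of actin regulation, 22 of 24, the BAF subunit gene Arid1b 19 of 24 and the G protein gene Gnao1 19 of 24. Within 2.0 kb of their starts all 8 had fewer covered bases with ethanol. The change was at least 1.5-fold at Dagla (2746 to 1541 bp) and smaller at Nfix (6859 to 5137 bp), Gse1 (7780 to 6634 bp), Coro2b (2393 to 1946 bp) and Zeb2 (7816 to 6904 bp). It was smallest at Gnao1 (2870 to 2665 bp), Arid1b (3229 to 3133 bp) and Tcf4 (1186 to 1114 bp). Bcar1 lost 8 of 12 and gained 6. The widest lost peaks were at Gpr37 (1305 bp), at the start of Trim2 (1302 bp) and at Enc1 (1249 bp), all 3 with H3K27ac in both control lists and H3K9ac in both knockdown lists.

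Lost peaks were then looked up in the other lists. An H3K27ac peak overlapped 67.7% of them in untreated control mice and 64.8% in ethanol-treated ones, against 96.5% and 96.4% of kept peaks. In both lists 55.7% had one and in neither 23.2%; 12.1% had one in the untreated list only and 9.09% in the ethanol list only. In the H3K9ac lists of the knockdown 29.9% of lost peaks had a counterpart in both and 39.4% in neither. Taken singly, the untreated knockdown list overlapped 40.5% of lost and 93.4% of kept peaks, and the ethanol one 50.0% and 95.8%. Lost peaks at gene starts were found more often, at 56.7% in untreated and 66.9% in ethanol-treated knockdown mice, than those inside genes, at 34.7% and 43.4%. Kept peaks had the same order, with 97.1% and 98.3% at gene starts and 84.4% and 89.5% inside genes. Of gained peaks, 45.8% were in neither knockdown list and 27.5% in neither H3K27ac control list. Inputs may be shared between the lists; the labels do not say.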

How the data were processed

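H3K9ac ChIP-seq of dorsal hippocampus was read from peak lists, 1 per group of 3 replicates. The submitters' processing notes name MACS2, STAR 2.5.2a, bcl2fastq and bedtools, with coordinates on GRCm38 (mm10). The labels put the lists at a false discovery rate of 0.001, called for ChIP against input; the way replicates entered the call is not stated in them. The score in the deposited lists was read as the −log10 of the q-value, from its values. Total reads are unknown, and deeper sequencing alone can lengthen a list and widen its peaks.

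Overlaps, distances and covered bases were computed with Python 3.11.15, numpy 2.4.6 and pandas 2.3.3, which recovered lost, gained and split peaks on simulated data, and figures were drawn with matplotlib 3.10.9. Gene names and starts came from RefSeq tables of GRCm38.p6; the 17492 genes with a start used a window of 1.0 kb on either side for peaks and 2.0 kb for covered bases, summed over all starts, and the other 4395 used both gene ends. Tables gave no exons or untranslated regions, so positions are by gene only. Peaks were placed by midpoint. A 1.5-fold difference was read only at genes with 500 covered bp in either list. Score quintiles and deciles are within a list, or over the genes read for 1.5-fold. Named genes were, by rule, the 12 lost and 8 gained gene-start peaks of highest score, the 8 largest falls and 5 largest rises in covered bases, the 8 genes with most lost and the 4 with most gained peaks inside, the 8 widest split or lost peaks, and in each of 21 gene lists the members that lost or gained a peak and the 2 largest changes each way. Some genes that this rule names are not reported here. Other list members named were chosen after their values were seen. The members and lists were chosen with earlier results of these data known. Alternatives changed the overlap rule, score minimum, list length, merging, windows and anchors. No tests were run, because each group has 1 list.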

Additional observations from a re-analysis of the deposited data

Results flagged for a closer look

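The ethanol lists differed from the untreated lists in opposite directions with the control vector and with the knockdown. The number of H3K9ac peaks changed by -18.8% with the control vector and by 9.45% in the knockdown, and covered bases by -28.7% and 10.8%. With the control vector 3122 genes had at least 1.5-fold fewer covered bases near their start and 63 had more. In the knockdown 293 had fewer and 1038 more. There is 1 list per group, so the difference was not tested.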

How the results depend on the processing

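More peaks were lost than gained, and more genes had fewer covered bases than more, under every alternative run. With at least 50% of a peak required in the other list, 47.9% of untreated peaks were lost and 16.3% of ethanol peaks gained, by location 24.7% at gene starts, 74.4% inside genes and 62.7% outside, and 259 genes gained a start peak. With a peak within 500 bases counted as shared, 9532 (24.9%) were lost and 1823 (5.87%) gained, by location 6.04%, 44.6% and 41.6%, and 15373 untreated peaks met 2 or more. At a score of 5 or more, 34.6% were lost, 61.9% inside genes, and 2205 (8.71%) gained. With lists of equal length, 8649 (27.9%) were lost, by location 11.9%, 52.4% and 42.2%, 15.2% of ethanol peaks were gained, 220 genes gained a start peak and 130 had at least 1.5-fold more covered bases. With peaks within 500 bases merged first, 8355 (34.8%) were lost, 8.26% at gene starts, 2407 (12.8%) gained, 801 untreated peaks met several and 155 genes had at least 1.5-fold more; endothelial and mural markers turned to 3 with fewer and 4 with more. With only genes in the promoter table, chosen after seeing the data, 76 genes gained a peak. The causes of these shifts were not tested. Genes that lost a start peak ran from 481 to 833, genes with at least 1.5-fold fewer bases from 2701 to 4158. Among named genes followed singly, 133 of the values under alternatives stayed within 1.5-fold and 22 moved. None of the 22 took the opposite sign, but Gfap went from -363 to 0 bp at a score of 5 or more and with lists of equal length. No paired analysis was possible because each group has a single list and no value per replicate, and no replicate could be left out for the same reason. With no read totals, depth cannot be made equal between the lists.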

Other observations

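A few of the changed peaks of highest score or width had few or no counterparts in the lists searched. The H3K27ac lists of the knockdown were not searched. The lost peak of 1145 bp inside Ccdc122 (chr14:77050756-77051900), at score percentile 89.8, overlapped no peak of the ethanol list, the knockdown H3K9ac lists or the H3K27ac control lists. The lost peak with the highest score, outside genes on chr11:25099997-25100243 and 247 bp wide, lay at percentile 96.6 and had a counterpart in the untreated knockdown list among those lists. A gained peak of 876 bp inside Fam91a1 (chr15:58438235-58439110) had none in them. Inside Aven a gained peak of 983 bp (chr2:112603571-112604553) at percentile 88.5 lay 101760 bp from the nearest untreated peak, and had a counterpart in the ethanol H3K27ac control list and the untreated knockdown list.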
